A study of Mus musculus with 6 samples.

Results

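A set of 37 genes, 19 of the ATF4 pathway and 18 encoding cytosolic aminoacyl-tRNA synthetases, was followed in kidney tubule cells labelled as YOD1 with Ang II, against cells labelled as control with Ang II. The members were picked by gene symbol from the 28789 genes of the deposited table, with no measured value in the rule, and all 37 were found there. Earlier results of these data were known when the list was made. The ATF4 pathway genes were Atf4, Atf5, Ddit3, Ddit4, Trib3, Chac1, Asns, Sesn2, Psat1, Phgdh, Psph, Shmt2, Mthfd2, Aldh18a1, Pycr1, Nupr1, Cth, Cebpg and Vldlr. The synthetases were those for alanine, cysteine, aspartate, glycine, histidine, isoleucine, lysine, leucine, methionine, asparagine, glutamine, arginine, serine, threonine, valine, tryptophan and tyrosine, and Eprs, which carries the activities for glutamate and proline. The table lists them under their older symbols (Aars, Cars and so on) except Mars1.

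The cells were TCMK1, a mouse renal tubular epithelial line. Libraries of poly(A) RNA came from 3 samples labelled as YOD1 with Ang II and 3 labelled as control with Ang II, so that both groups had received angiotensin II and no untreated cells were in the comparison. YOD1 is a deubiquitinase of the OTU family. How it was introduced, what the controls carried in its place, and the dose and duration of Ang II are not stated in the sources used here. Nothing in the labels says that the 3 samples of a group were separate cultures, so the p-values cover only sample-to-sample spread, possibly of technical origin.

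ATF4 is a transcription factor whose protein is made when the initiation factor eIF2 is phosphorylated, which happens under amino acid shortage, endoplasmic reticulum stress, haem deficiency or viral RNA. It pairs with C/EBP proteins on composite C/EBP-ATF elements and turns on genes for amino acid synthesis, amino acid uptake and the charging of tRNA, together with feedback and death regulators such as Trib3, Ddit3 and Chac1. Aminoacyl-tRNA synthetases join each amino acid to its tRNA. Several of the cytosolic ones sit in a multisynthetase complex and the others are free, and many of their genes belong to the known targets of ATF4.

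The C/EBP-ATF element was searched as the letters TGATGNAA on either strand in windows from 250 bases before to 50 bases after each start site in a RefSeq promoter table of GRCm38.p6, a build other than that of the expression files. A window was matched for 29 of the 37 members, and Cars, Cth, Hars, Lars, Nars, Rars, Vars and Wars were not analysed here. Of those 29 genes, 11 held a match (37.9%), against 1219 of 27025 genes with a window (4.51%). The matches were in 6 of 18 ATF4 pathway genes and 5 of 11 synthetases. The 30 bases around the match are shown for 10 of the 11 because it is the element through which ATF4 is known to act, with the matched letters in capitals, written along the strand of the gene. Capitals that begin with TT hold the motif on the opposite strand.
Asns (chr6:7693214-7693243, minus strand, match 23 bases before the start): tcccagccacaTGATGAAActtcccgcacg
Chac1 (chr2:119351038-119351067, plus strand, match 193 bases before the start): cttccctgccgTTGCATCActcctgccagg
Trib3 (chr2:152344028-152344057, minus strand, match at base 15 of the transcript): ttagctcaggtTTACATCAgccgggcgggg
Nupr1 (chr7:126625562-126625591, minus strand, match 110 bases before the start): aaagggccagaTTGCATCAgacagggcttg
Pycr1 (chr11:120643833-120643862, minus strand, match 103 bases before the start): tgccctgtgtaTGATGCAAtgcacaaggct
Vldlr (chr19:27216809-27216838, plus strand, match 200 bases before the start): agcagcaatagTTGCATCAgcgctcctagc
Gars (chr6:55037960-55037989, plus strand, match 30 bases before the start): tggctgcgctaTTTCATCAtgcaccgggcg
Iars (chr13:49682126-49682155, plus strand, match at base 8 of the transcript): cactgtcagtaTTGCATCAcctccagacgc
Tars (chr15:11399655-11399684, minus strand, match 15 bases before the start): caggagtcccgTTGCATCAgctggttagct
Yars (chr4:129189895-129189924, plus strand, match at base 4 of the transcript): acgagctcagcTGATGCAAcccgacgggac

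The endoplasmic reticulum stress element, a longer motif with CCAAT and CCACG ends, was in 0 of the 29 members and in 0.137% of all genes with a window. At so low a share, 0 of 29 does not set the members apart from other genes. The 250 bases upstream are given for Asns, which makes asparagine, and for Chac1, which degrades glutathione, since both are commonly read as reporters of ATF4 activity.
Asns (chr6:7693210-7693459, minus strand, 250 bases upstream): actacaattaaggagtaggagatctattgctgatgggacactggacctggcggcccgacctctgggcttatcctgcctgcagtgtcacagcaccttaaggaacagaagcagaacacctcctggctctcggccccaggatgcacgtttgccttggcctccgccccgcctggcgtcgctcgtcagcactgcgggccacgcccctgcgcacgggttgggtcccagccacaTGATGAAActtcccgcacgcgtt
Chac1 (chr2:119350992-119351241, plus strand, 250 bases upstream): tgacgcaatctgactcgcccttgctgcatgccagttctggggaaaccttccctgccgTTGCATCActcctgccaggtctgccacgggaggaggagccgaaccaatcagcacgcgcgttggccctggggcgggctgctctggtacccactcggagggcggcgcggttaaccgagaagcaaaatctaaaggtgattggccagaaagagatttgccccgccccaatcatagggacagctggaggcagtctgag

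A match describes letters and is no evidence of binding. The median log2 fold change, YOD1 over control, was 0.14 for the 11 genes with a match, of which 7 lay above 0, and -0.01 for the 18 genes with a window and no match, of which 9 lay above 0. Genes with a match ran from Chac1 at -0.24 to Pycr1 at 0.43, on both sides of 0.

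Expression was deposited in FPKM, fragments scaled to transcript length and to the mapped total of the library, so levels of different genes can be set side by side per length. Depth is unknown from FPKM, and a rough estimate is 0.801 to 0.841 of control 1 for the YOD1 libraries. It is the commonest ratio between control 1 and the library over genes of very low FPKM in both. Only 3.33% to 4.66% of those genes shared that ratio, so a difference in depth is not established. Of the 18 tubular epithelial markers, 12 passed the filter of at least 1 FPKM in at least 3 libraries, none was called, 9 lay below 0 and the median log2 fold change was -0.18. Krt18 stood at 595 to 820 FPKM in YOD1 libraries and 482 to 587 FPKM in control libraries, without overlap, as for Krt8. Of the 12, groups did not overlap for 2 in the higher direction (16.7%), against 9.77% of all tested genes, and for 3 in the lower, against 19.1%. At an unadjusted p under 0.05 (limma), 3 were lower (25%), against 13%, and 0 higher, against 7.87%. Among those without overlap in the lower direction were Cdh16 and Pax8, with log2 fold changes of -0.41 and -0.45 (limma adjusted p = 0.127 and 0.12). The proximal tubule genes Hnf4a and Slc34a1 were at or near 0 (at most 0.117 FPKM). Of the 7 leukocyte markers, 3 passed the filter and none was called. Their log2 fold changes ran from -0.37 to 1.42 with a median of 0.05. In the authors' deposited log2 ratios Cd68 lay at -0.43 and Csf1r at 0.06, so the markers did not move together. Lyz2 stood at 10.5, 17.99 and 18.7 FPKM in YOD1 libraries, against 1.47, 8.15 and 9.04 FPKM in control libraries (log2 fold change 1.42, limma adjusted p = 0.158), and the defining marker Ptprc was at most 0.0708 FPKM. The part of these markers in the members' values was not tested. Yod1 itself stood at 1.73, 7.56 and 1.86 FPKM in YOD1 libraries, against 0.842, 0.757 and 0.684 FPKM in control libraries, above every control but with a limma adjusted p of 0.141. The rRNA-derived gene Rn18s-rs5 held 2.17% to 3.90% of the summed FPKM in YOD1 libraries and 0.421% to 0.733% in control libraries. In cultured bulk samples, fewer cells with a transcript and less of it per cell cannot be told apart.

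The set was strongly expressed in both groups. By mean FPKM over the 6 libraries, the members' median percentile among the 11483 tested genes (at least 1 FPKM in at least 3 libraries) was 91.5, and all 37 passed this filter. Phgdh was highest, with a mean of 929 FPKM (percentile 99.8), followed by Atf4 at 454, Shmt2 at 435, Trib3 at 369 and Chac1 at 297 FPKM. The lowest were Cebpg at 5.62, Vldlr at 5.34 and Eprs at 4.72 FPKM (percentile 38.4). Among synthetases, Sars at 180, Vars at 151 and Gars at 145 FPKM led, and the 8 members of the multisynthetase complex had a median of 28.1 FPKM, against 54.7 FPKM for the 10 free synthetases.

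**Figure D1:**
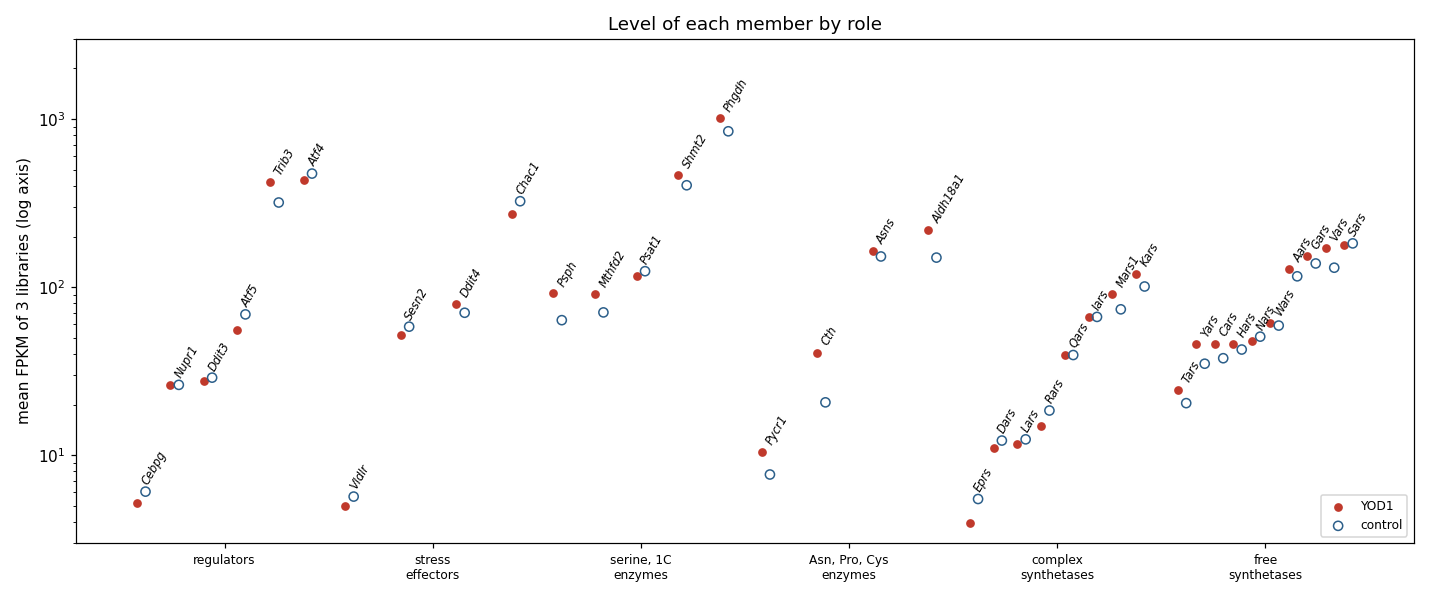
Mean FPKM of 3 YOD1 libraries (filled red) and 3 control libraries (open blue) for each of the 37 members, on a log axis, grouped by role with the lowest level at the left of each role (1C stands for folate enzymes, complex for the multisynthetase complex). Phgdh, Atf4, Shmt2 and Trib3 lie highest and Eprs, Vldlr and Cebpg lowest in both groups.

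Under YOD1 no gene of the ATF4 pathway and no cytosolic synthetase passed the test. The highest log2 fold changes above 0 were those of Cth, Aldh18a1, Psph, Pycr1 and Trib3 in the pathway and of Vars, Yars, Mars1 and Cars among the synthetases. Of these, the groups overlapped for Aldh18a1, Pycr1 and Vars. Furthest below 0 were Cebpg and Chac1 in the pathway, at -0.25 and -0.24, and Eprs and Rars among the synthetases, at -0.46 and -0.33. Of those, only Chac1 had groups without overlap. Groups also overlapped for Atf4, Ddit3, Asns and Psat1. In the test of YOD1 against control over all genes (limma on log2(FPKM + 1), Benjamini-Hochberg), 51 genes were called higher, or 0.444% of those tested, and 4 lower, or 0.0348%, at an adjusted p under 0.05. No member was called in either direction, 0 of 37, and the smallest adjusted p was 0.105, for Psph. At an unadjusted p under 0.05, 8 members were higher (21.6%), against 7.87% of all tested genes, and 0 were lower, against 13%. Those 8 were Psph, Cth, Aldh18a1, Mthfd2, Trib3, Yars, Mars1 and Cars. The list was chosen with earlier results of these data known, so such shares describe it and are no test of it as a set. Members higher at an unadjusted p under 0.05 numbered 4 without control 2 and 5 without YOD1 library 2, against 5.1% and 6.81% of all genes in those fits. They numbered 11 without control 3, under median-ratio scaling and after length and GC correction, against 8.37%, 11.8% and 7.1% of all genes. Members lower at that level numbered 2 without control 3 (Atf5 and Sesn2) and 1 without YOD1 library 2 (Eprs), against 11.7% and 16.3% of all genes in those fits. After length and GC correction with the replicate number as a block, 1 member was lower (Chac1), against 15.4% of all genes. In that fit 9 members were higher, Trib3 not among them, against 6.62% of all genes. The authors' deposited table marks 0 of the 37 as significant, against 0.993% of all its genes, and gives Cth a q of 0.00132 and Psph a q of 0.0369. The authors' mark thus asks for more than a q under 0.05, and it is no like measure to the limma calls.

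The members' log2 fold changes (on the log2(FPKM + 1) scale) ran from -0.46 for Eprs to 0.96 for Cth. Of the 37, 21 lay above 0 (56.8%), against 36.4% of all tested genes. The median was 0.11 for the ATF4 pathway genes and 0.08 for the synthetases, beside -0.10 for all tested genes. The ATF4 median depended on single libraries and was 0.01 without control 3, 0.05 without YOD1 library 2 and 0.06 without YOD1 library 3. The synthetase median was 0.04 without control 2 and 0.17 without YOD1 library 3. Groups did not overlap for 9 members that were higher in the YOD1 libraries (24.3%), against 9.77% of all tested genes, and for 1 that was lower, Chac1, against 19.1%. These shares too describe a list chosen with earlier results of these data known.

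**Figure D2:**
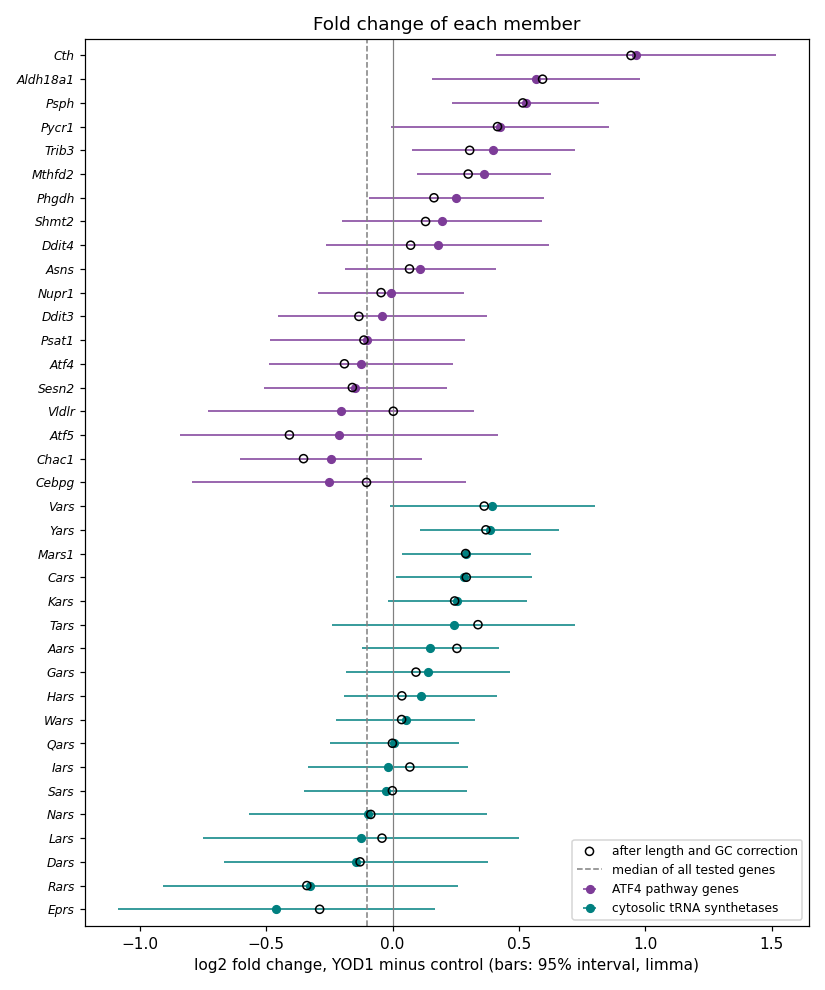
Log2 fold change of each member, YOD1 minus control, with its 95% interval from limma (filled points and bars) and the value once length and GC trends were removed library by library (open circles). The dashed line is the median of all tested genes at -0.10, and Cth at 0.96 and Eprs at -0.46 mark the ends of the set.

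Of the 6 regulators of the pathway, 5 had a log2 fold change at or below 0 and 1, Trib3, lay above it, none past the threshold. Their median was -0.08, near the -0.10 of all tested genes, of which 36.4% lay above 0. Atf4 (ENSMUSG00000042406), the factor that gives the pathway its name, stood at 483, 441 and 377 FPKM in YOD1 libraries, against 554, 446 and 421 FPKM in control libraries. Control 1 was highest and YOD1 library 3 lowest, and the groups overlapped. The difference between groups was -0.12 on the log2 scale (95% interval -0.49 to 0.24, limma adjusted p = 0.672). Since ATF4 is controlled largely at translation, its mRNA level does not report its protein.

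Ddit3, which encodes the death-linked factor CHOP, stood at 30.8, 24.6 and 27.4 FPKM in YOD1 libraries, against 37.8, 23.2 and 25.8 FPKM in control libraries. The spread within the controls covered all YOD1 values, and the log2 fold change was -0.04 (limma adjusted p = 0.915). Atf5, a related factor also induced at translation, averaged 55.5 ± 5.43 FPKM in YOD1 libraries and 68.8 ± 29.3 FPKM in control libraries (SD, n = 3 each), with controls so far apart that its fold turned from -0.21 to 0.08 without control 2. Cebpg, a C/EBP partner of ATF4, averaged 5.17 ± 1.97 FPKM in YOD1 libraries and 6.07 ± 0.477 FPKM in control libraries (SD, n = 3 each). Nupr1, a stress-induced chromatin protein, averaged 26.1 ± 2.03 FPKM in YOD1 libraries and 26.2 ± 2.44 FPKM in control libraries (SD, n = 3 each). Their log2 fold changes were -0.25 and -0.00 (limma adjusted p = 0.557 and 0.986).

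Trib3 (ENSMUSG00000032715), a pseudokinase that binds ATF4 and CHOP and restrains them, was the exception among the regulators. It stood at 400, 396 and 465 FPKM in YOD1 libraries, against 326, 281 and 349 FPKM in control libraries. Every YOD1 library lay above every control. Its log2 fold change of 0.40 (95% interval 0.08 to 0.72) did not pass the threshold (limma adjusted p = 0.179). Of the 6 regulators it was the only one with a fold change above 0, under median-ratio scaling Ddit3 and Nupr1 were above 0 too, and with 1 library left out 1 to 3 of the 6 were.

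Of the stress effectors, Chac1, Sesn2 and Vldlr had lower means in YOD1 libraries and Ddit4 a higher one, none past the threshold. Chac1 (ENSMUSG00000027313), the glutathione-degrading enzyme, stood at 270, 259 and 282 FPKM in YOD1 libraries, against 400, 282 and 290 FPKM in control libraries. All YOD1 values lay below all controls, but YOD1 library 3 and control 2 were almost equal and control 1 set much of the gap. The log2 fold change was -0.24 (95% interval -0.60 to 0.12, limma adjusted p = 0.386).

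Sesn2, a stress-induced inhibitor of mTORC1, stood at 49.7, 53.7 and 51.6 FPKM in YOD1 libraries, against 67.2, 62.8 and 44.5 FPKM in control libraries. The YOD1 values lay between the controls, so the groups overlapped (log2 fold change -0.15, limma adjusted p = 0.612). Ddit4, another inhibitor of mTORC1, averaged 79.1 ± 14.2 FPKM in YOD1 libraries and 70.4 ± 17.6 FPKM in control libraries, and the lipoprotein receptor gene Vldlr 5.0 ± 1.99 FPKM in YOD1 libraries and 5.67 ± 0.603 FPKM in control libraries (SD, n = 3 each). Neither differed beyond its spread (limma adjusted p = 0.610 and 0.630).

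The genes of serine synthesis and of mitochondrial folate metabolism were mostly higher in YOD1 libraries, with 4 of 5 above 0, a median log2 fold change of 0.25 (0.16 without YOD1 library 3) and none past the threshold. Phgdh (ENSMUSG00000053398), the first enzyme of serine synthesis, stood at 969, 916 and 1151 FPKM in YOD1 libraries, against 861, 851 and 825 FPKM in control libraries. The groups did not overlap, and the controls lay close together. That amounted to 0.25 on the log2 scale (limma adjusted p = 0.352).

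Psat1 (ENSMUSG00000024640), the aminotransferase of the middle step, had the only fold change below 0 among these enzymes. It stood at 129, 125 and 93.7 FPKM in YOD1 libraries, against 148, 106 and 119 FPKM in control libraries. The groups overlapped, and YOD1 library 3 was lowest. Its fold change was -0.10 on the log2 scale (limma adjusted p = 0.753), and it turned to 0.01 under median-ratio scaling and to 0.05 without YOD1 library 3.

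Psph (ENSMUSG00000029446), the phosphatase of the last step, stood at 86.6, 89.6 and 99.1 FPKM in YOD1 libraries, against 72.2, 59.8 and 58.8 FPKM in control libraries. All YOD1 values lay above all controls, by more than the spread within either group. The log2 fold change was 0.53 (95% interval 0.23 to 0.82, limma adjusted p = 0.105), the lowest p of the set. Psph shares 452 annotated bases with Cct6a on the opposite strand, a gene at 83.0 FPKM, and reads of the pair cannot be told apart where the library strand is not stated.

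Mthfd2, a mitochondrial folate enzyme, stood at 85.1, 95.9 and 92.4 FPKM in YOD1 libraries, against 71.4, 66.1 and 74.6 FPKM in control libraries. The groups did not overlap (log2 fold change 0.36, 95% interval 0.10 to 0.63, limma adjusted p = 0.153). Shmt2, which moves a carbon unit from serine to folate in mitochondria, averaged 466 ± 91.1 FPKM in YOD1 libraries and 404 ± 49.5 FPKM in control libraries (SD, n = 3 each), and its groups overlapped (limma adjusted p = 0.532).

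The enzymes for cysteine, proline and asparagine had the highest median log2 fold change of the 6 roles, 0.50, with 4 of 4 above 0 and again none past the threshold. Cth (ENSMUSG00000028179), cystathionine gamma-lyase, which yields cysteine from cystathionine, stood at 38.7, 52.9 and 30.9 FPKM in YOD1 libraries, against 25.6, 13.7 and 22.5 FPKM in control libraries. All YOD1 values lay above all controls, with a wide spread in both groups. The ratio of means was 1.98 and the log2 fold change 0.96 (95% interval 0.41 to 1.51, limma adjusted p = 0.114). Under median-ratio scaling it was 1.07 with a limma adjusted p of 0.0486, the only member called in any setting tried.

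Aldh18a1 (ENSMUSG00000025007), which opens proline synthesis from glutamate, stood at 187, 233 and 240 FPKM in YOD1 libraries, against 130, 128 and 192 FPKM in control libraries. Control 3 lay above YOD1 library 1, so the groups overlapped. The fold on the log2 scale was 0.57 (95% interval 0.16 to 0.98, limma adjusted p = 0.15). Pycr1, the mitochondrial enzyme that closes the same route, averaged 10.5 ± 1.29 FPKM in YOD1 libraries and 7.67 ± 2.19 FPKM in control libraries (SD, n = 3 each), with control 3 at 10.2 FPKM inside the YOD1 range (limma adjusted p = 0.244).

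Asns (ENSMUSG00000029752), asparagine synthetase, a widely used reporter of the amino acid response, stood at 163, 178 and 151 FPKM in YOD1 libraries, against 171, 140 and 146 FPKM in control libraries. The groups overlapped, with control 1 above 2 of the YOD1 libraries. The log2 fold change was 0.11 (95% interval -0.19 to 0.41, limma adjusted p = 0.645).

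**Figure D3:**
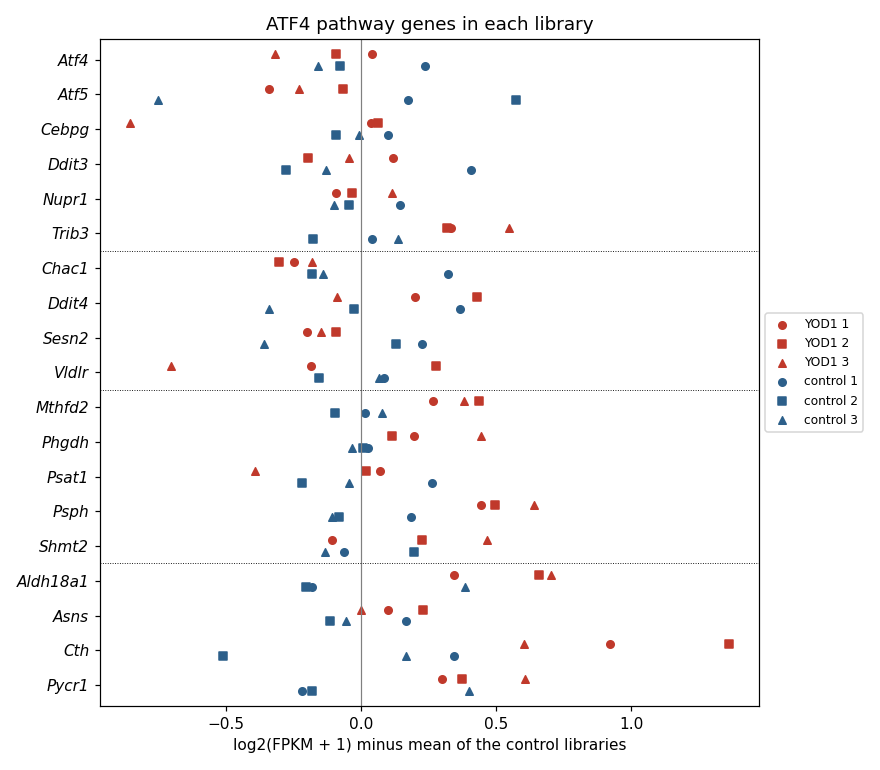
The 19 ATF4 pathway genes in each library, as log2(FPKM + 1) minus the mean of the 3 control libraries, with YOD1 libraries in red and control libraries in blue, and dotted lines between regulators, stress effectors, serine and folate enzymes, and enzymes for asparagine, proline and cysteine. In the lower 2 blocks most red points lie right of the blue ones (Psph, Mthfd2, Phgdh and Cth fully), while in the upper 2 blocks they overlap except for Trib3 and, narrowly, Chac1.

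Among the synthetases, 11 of 18 lay above 0 and 0 of 18 were called. Yars, for tyrosine, stood at 44.5, 46.1 and 46.9 FPKM in YOD1 libraries, against 33.2, 32.7 and 39.2 FPKM in control libraries. Every YOD1 library lay above every control. Its fold on the log2 scale was 0.38 (95% interval 0.11 to 0.66, limma adjusted p = 0.148).

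Mars1, for methionine, stood at 88.1, 97.1 and 86.7 FPKM in YOD1 libraries, against 72.5, 74.4 and 74.4 FPKM in control libraries. The controls were almost equal and all YOD1 values lay above them (log2 fold change 0.29, 95% interval 0.04 to 0.55, limma adjusted p = 0.201). Mars1 and Ddit3 share 68 annotated bases on opposite strands, and the fold changes of the pair, 0.29 and -0.04, differed in sign. Other annotated overlaps on opposite strands touch Atf5 (82 bases with Nup62), Hars (195 with Hars2) and Yars (30 with C77080), and Aars shares 1326 bases on its own strand with Exosc6, a gene listed near 0.

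Cars, for cysteine, stood at 44.5, 49.5 and 44.5 FPKM in YOD1 libraries, against 37.6, 35.2 and 40.4 FPKM in control libraries. All YOD1 values lay above all controls (log2 fold change 0.28, 95% interval 0.01 to 0.55, limma adjusted p = 0.224). Kars, for lysine and shared with the mitochondrion, stood at 124, 117 and 120 FPKM in YOD1 libraries, against 98.2, 92.5 and 112 FPKM in control libraries. Its groups did not overlap either (log2 fold change 0.26, limma adjusted p = 0.263).

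Vars, for valine, stood at 142, 170 and 203 FPKM in YOD1 libraries, against 103, 140 and 148 FPKM in control libraries. Control 3 lay above YOD1 library 1, and the log2 fold change was 0.39 (95% interval -0.01 to 0.80, limma adjusted p = 0.250), the highest above 0 of the synthetases. With 60.9% GC it was also the member of the synthetase list richest in GC. Annotated processed pseudogenes exist for Kars and Phgdh, and reads of such copies may have been split in the counting.

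The free synthetases and those of the multisynthetase complex differed in their balance, as a description that in part rested on YOD1 library 3. Of the 10 free ones, 8 lay above 0, with a median log2 fold change of 0.15. Tars, for threonine, averaged 24.4 ± 5.87 FPKM in YOD1 libraries and 20.4 ± 4.69 FPKM in control libraries (SD, n = 3 each, as for the genes that follow). Aars, for alanine, averaged 129 ± 8.25 FPKM in YOD1 libraries and 116 ± 7.24 FPKM in control libraries. Gars, for glycine, averaged 152 ± 16.6 FPKM in YOD1 libraries and 138 ± 18.4 FPKM in control libraries. All 3 lay above 0 on the log2 scale, as did Hars, for histidine, at 46 ± 4.41 FPKM in YOD1 libraries and 42.5 ± 4.82 FPKM in control libraries, and Wars, for tryptophan, at 61.5 ± 6.2 FPKM in YOD1 libraries and 59 ± 1.13 FPKM in control libraries. Sars, for serine, averaged 178 ± 9.46 FPKM in YOD1 libraries and 182 ± 27.2 FPKM in control libraries. Nars, for asparagine, averaged 47.6 ± 11.2 FPKM in YOD1 libraries and 50.7 ± 11.4 FPKM in control libraries. The limma adjusted p of these 7 ran from 0.479 for Aars to 0.930 for Sars, and the groups overlapped for each.

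Of the 8 complex members, 3 lay above 0 (Mars1, Kars and Qars), with a median of -0.07. Without YOD1 library 3, 5 of the 8 lay above 0 (Mars1, Kars, Iars, Dars and Lars) with a median of 0.07, and 9 of the 10 free ones with a median of 0.21. The complex median also turned to 0.03 under median-ratio scaling, where Iars lay above 0 and the free median was 0.26, and Qars fell below 0 at a common total without rRNA. Eprs, for glutamate and proline, averaged 3.95 ± 1.92 FPKM in YOD1 libraries and 5.49 ± 0.963 FPKM in control libraries (SD, n = 3 each), which is -0.46 on the log2 scale (95% interval -1.08 to 0.17, limma adjusted p = 0.350). Rars, for arginine, averaged 15 ± 5.41 FPKM in YOD1 libraries and 18.4 ± 4.13 FPKM in control libraries. Dars, for aspartate, averaged 11 ± 2.96 FPKM in YOD1 libraries and 12.2 ± 3.05 FPKM in control libraries. Lars, for leucine, averaged 11.7 ± 4.39 FPKM in YOD1 libraries and 12.4 ± 2.92 FPKM in control libraries. These 4 genes were the lowest of the complex in level, and each had overlapping groups. Iars, for isoleucine, averaged 66.1 ± 10.4 FPKM in YOD1 libraries and 66.5 ± 4.69 FPKM in control libraries. Qars, for glutamine, averaged 39.6 ± 2.07 FPKM in YOD1 libraries and 39.4 ± 0.745 FPKM in control libraries. From Rars to Qars the limma adjusted p ran from 0.476 to 0.977.

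**Figure D4:**
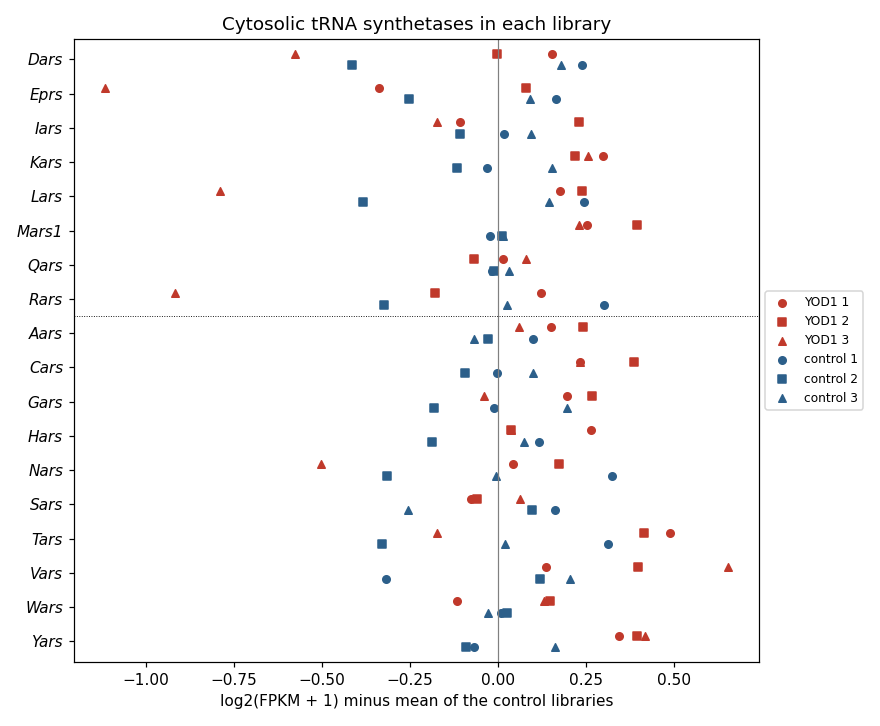
The 18 cytosolic synthetase genes in each library, as log2(FPKM + 1) minus the mean of the 3 control libraries, with YOD1 libraries in red and control libraries in blue and a dotted line between complex and free synthetases. The triangle of YOD1 library 3 lies far left of the other red points for Eprs, Rars, Dars and Lars, and Yars, Mars1, Cars and Kars have all red points right of the blue ones.

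A single library carried much of the low side of the synthetase list. In YOD1 library 3, Lars stood at 6.63 FPKM, against 13.9 and 14.5 FPKM in the other YOD1 libraries and 14.6, 9.10 and 13.6 FPKM in the controls. Eprs stood at 1.97 FPKM there and at 4.09 and 5.79 FPKM in the other YOD1 libraries. Both genes were lowest in that library, and without it the log2 fold change of Lars was 0.21 in place of -0.13.

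These differences between libraries of 1 group followed the base composition of the transcripts. Of the 12 members under 48% GC in their longest transcript, 7 had their lowest value of all in YOD1 library 3, and of the 25 members from 48% up, 3 did. Over all tested genes the shares were 71% and 28%, so the members followed the whole table here. The split at 48% was chosen after the values were seen. Spearman's rho between GC content and the deviation of YOD1 library 3 from the other YOD1 libraries was 0.676 over the 37 members, 0.802 over the 18 synthetases and 0.595 over 11386 genes. For control 2 against the other controls it was 0.687, 0.882 and 0.426 over the same sets of genes. These are descriptions across genes that share their libraries.

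The log2 fold change between groups followed GC content as well, with a rho of 0.699 over the synthetases, 0.297 over the 37 members and 0.221 over all genes, and with -0.04 over the ATF4 pathway genes. Synthetases under 48% GC had a median log2 fold change of -0.13 with 2 of 7 above 0, and those from 48% up had 0.14 with 9 of 11 above 0. The complex members had a median GC content of 47.1% and the free synthetases 52.9%, so the 2 properties went together in this list. After length and GC trends were removed library by library, the median was -0.02 for the complex, with 3 of 8 above 0, and 0.17 for the free synthetases, with 8 of 10 above 0. In the same setting the medians were 0.07 for the ATF4 pathway genes, 0.05 for the synthetases and -0.09 for all genes, and no member was called. Psph, Cth and Aldh18a1 had log2 fold changes of 0.52, 0.94 and 0.59 there.

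**Figure D5:**
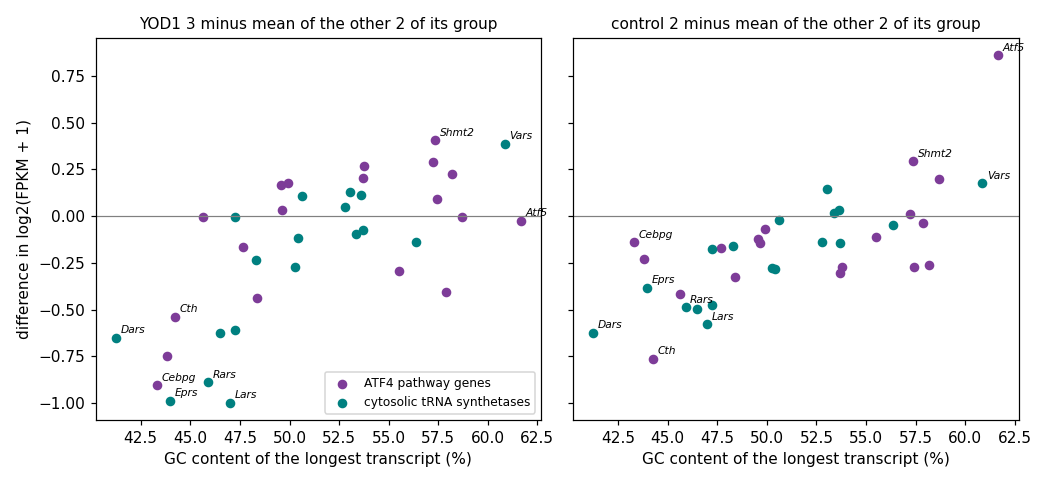
Difference in log2(FPKM + 1) of YOD1 library 3 (left) and control 2 (right) from the mean of the other 2 libraries of the group, against the GC content of each member's longest transcript, with ATF4 pathway genes in purple and synthetases in green. Lars, Eprs and Rars, poor in GC, lie below 0 in both panels, and Vars and Shmt2, rich in GC, lie above it. Not all members rich in GC do so, with Ddit4 and Atf4 at -0.40 and -0.29 in the left panel.

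Genes around the set were described by lists, chosen with earlier results of these data known. Beside the calls in each list stand the shares over all tested genes, 0.444% called higher and 0.0348% called lower. Of the mitochondrial synthetases, 15 of 17 passed the filter, Mars2 and Nars2 being too low, and 1 was called higher and 0 lower. Lars2 (ENSMUSG00000035202), the mitochondrial leucyl enzyme, stood at 27.6, 34.5 and 31.3 FPKM in YOD1 libraries, against 11.8, 10.5 and 10.4 FPKM in control libraries. All YOD1 values lay far above every control. Lars2 rose by 1.43 on the log2 scale (95% interval 1.12 to 1.73, limma adjusted p = 0.00378), also when any library was left out (adjusted p 0.00268 to 0.0225), but not with no filter on low values (adjusted p = 0.129) nor after length and GC correction with the replicate block (adjusted p = 0.0643). The rRNA-derived Rn18s-rs5 stood at 10604, 12732 and 7638 FPKM in the same YOD1 libraries, against 2351, 1324 and 1803 FPKM in the controls, and its part in the value of Lars2 was not tested.

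The cytosolic counterpart Lars did not move with Lars2, with a log2 fold change of -0.13 and overlapping groups. Of the other 14 mitochondrial synthetases tested, 13 lay above 0, against 36.4% of all tested genes, and none was called. The lowest adjusted p among them were those of Yars2, at 7.53 ± 1.44 FPKM in YOD1 libraries and 5.30 ± 0.780 FPKM in control libraries (SD, n = 3 each, limma adjusted p = 0.217), Fars2 (0.323), Aars2 (0.349) and Vars2 (0.350). The phenylalanyl subunits Farsa and Farsb and the scaffold genes Aimp1, Aimp2 and Eef1e1 had 0 of 5 called and a median of 0.17, which ran from -0.0033 (without control 2) to 0.20 with 1 library left out.

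Upstream of ATF4, 0 of 16 genes for eIF2 kinases, eIF2 and eIF2B subunits and the eIF2 phosphatase were called, with a median log2 fold change of -0.09, which turned to 0.01 without YOD1 library 3. Eif2ak3, which encodes the kinase PERK of the endoplasmic reticulum, averaged 4.94 ± 1.03 FPKM in YOD1 libraries and 7.60 ± 0.0968 FPKM in control libraries (SD, n = 3 each), which is -0.55 on the log2 scale (limma adjusted p = 0.136). Eif2b2, an eIF2B subunit, averaged 91.9 ± 5.34 FPKM in YOD1 libraries and 71.2 ± 7.15 FPKM in control libraries (SD, n = 3 each), or 0.37 on the log2 scale (limma adjusted p = 0.164). The groups of both genes did not overlap, in opposite directions.

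Further targets of ATF4 had 0 of 24 called and a median of 0.10 (0.05 to 0.20 with 1 library left out), with 8 higher and 1 lower at an unadjusted p under 0.05, which is 33.3% and 4.17% of them, against 7.87% and 13% of all tested genes. That list was also chosen with earlier results of these data known, so the shares are no test of it. Eif4ebp1, the translation repressor, stood at 119, 137 and 106 FPKM in YOD1 libraries, against 71.1, 59.6 and 77.4 FPKM in control libraries. The groups lay far apart, and the log2 fold change of 0.79 (95% interval 0.46 to 1.12) missed the threshold narrowly (limma adjusted p = 0.0548). Gdf15, a secreted stress cytokine, stood at 117, 162 and 105 FPKM in YOD1 libraries, against 80.4, 60.3 and 67.9 FPKM in control libraries, again without overlap (log2 fold change 0.86, limma adjusted p = 0.0771). Eif4ebp1 was also called without control 3 (limma adjusted p = 0.0391). Both genes were called when YOD1 library 3 was dropped (0.0313 and 0.0368) and under median-ratio scaling (0.0188 and 0.0251). In those settings, in that order, calls of higher genes over the whole table rose to 145, 90 and 160, in place of 51. Neither gene was called in any other setting. Dropping control 2 gave limma adjusted p of 0.219 for Eif4ebp1 and 0.286 for Gdf15. Dropping YOD1 library 1 gave 0.173 and 0.186. Once trends with length and GC were removed, their log2 fold changes were 0.74 and 0.65 (limma adjusted p = 0.0689 and 0.155). Stc2 and Mthfd1l had log2 fold changes of 0.51 and 0.39 (limma adjusted p = 0.162 and 0.180).

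The amino acid transporters of the response had 0 of 8 tested genes called and a median of 0.24, which was 0.11 without YOD1 library 2. Slc3a2, the heavy chain that carries Slc7a5 to the membrane, averaged 270 ± 41.2 FPKM in YOD1 libraries and 183 ± 10.9 FPKM in control libraries (SD, n = 3 each), which is 0.55 on the log2 scale (limma adjusted p = 0.115). Slc7a5, the light chain, averaged 181 ± 16.2 FPKM in YOD1 libraries and 141 ± 29.8 FPKM in control libraries, which is 0.37 (limma adjusted p = 0.238). The targets of ATF6 and XBP1, the other arms of the endoplasmic reticulum stress response, had 0 of 18 called, 9 above 0 and a median of 0.01. Without control 3, 3 of them were called higher, Manf, Sdf2l1 and Creld2 (adjusted p = 0.016, 0.0099 and 0.0289), with a median of 0.15, and without control 2 the median was -0.13. Leaving out control 3 also raised the calls over all genes, to 145 higher and 95 lower, in place of 51 and 4. Summed over the list, control 3 held 2649 FPKM, against 1648 and 1557 FPKM in controls 1 and 2. The YOD1 libraries held 1898 to 2122 FPKM. Within the list Sdf2l1 and Syvn1 lay at 1.40 and -0.49 (limma adjusted p = 0.119 and 0.114), the first with control 3 at 77.3 FPKM, close to YOD1 library 3 at 79.1 FPKM.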

How the data were processed

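Poly(A) RNA of 6 TCMK1 samples, 3 with YOD1 and 3 controls, underwent paired-end Illumina sequencing, per the labels' protocols. The authors deposited FPKM values per gene and library in 1 table, with their own fold ratio, its log2 value, a p-value and a q-value for each gene, per the file headers. The build mm8 is named, with Bowtie 0.12.2, StringTie 1.3.0 and HISAT2 2.0, without their roles, per the submitters' processing notes. The strand setting and the test behind the authors' p-values are not given in the sources used here. All 6 columns of library values were used.

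FPKM were transformed to log2(FPKM + 1), a scale that understates the change of low genes, and 11483 of 28789 genes passed a filter of 1 FPKM or more in 3 or more libraries. The contrast was fitted with limma 3.58.1 (R 4.3.3, two-sided, variances moderated along the intensity trend, Benjamini-Hochberg over all genes tested, threshold 0.05), without a replicate block. With 3 libraries a group, the smallest p of an exact permutation test is 0.1, so that test was not used. The script was tested on simulated data. The members, lists, roles and tests were chosen with earlier results of these data known, so no list was tested as a set and no p was adjusted over a list alone. Values in every library were given for Atf4, Ddit3, Trib3, Chac1, Asns, Psat1, Phgdh and Sesn2 and for the 5 members of lowest p in each list, and neighbouring lists were named by calls and up to 4 genes of lowest p. Vars2 and Lars beside Lars2, Eprs by library, Eef1e1, Mars2, Nars2, Manf, Creld2 and the cell type markers were named after their values were seen. Transcript length and GC content came from the longest transcript in GENCODE M21, which covered 99.2% of tested genes. It belongs to another build than the files, so no gene coordinates are given. Promoter windows came from RefSeq on GRCm38.p6. The sequence around the match of 1 member is not reported here. Overlaps between genes were counted in GENCODE M21. Alternatives were no filter, a filter at 5 FPKM, a pseudocount of 0.1, an added log2 fold change of at least 1, the replicate number as a block, median-ratio scaling, a common total without rRNA, a length and GC correction by splines with 4 degrees of freedom, limma without the trend, and each library left out. Python 3.11.15 with pandas 2.3.3 and matplotlib 3.10.9 made the tables and plots. FPKM give no read depth, so no counting intervals are given.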

Additional observations from a re-analysis of the deposited data

How the results depend on the processing

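No member was called higher or lower in any of these settings except Cth under median-ratio scaling, where the count of members called higher was 1 in place of 0. That scaling moved the median of all genes up by 0.09 on the log2 scale, put the synthetase median at 0.19 and the ATF4 median at 0.22, and put 13 of 19 and 14 of 18 members above 0. Counts over all genes depended on the setting. Genes called higher, 51 in the fit as reported, numbered 0 with no filter, 33 with the replicate number as a block, 160 under median-ratio scaling, 30 at a common total without rRNA, 13 after length and GC correction, 0 after that correction with the replicate block, and 17 to 145 with 1 library left out (17 without control 2, 145 without control 3). Genes called lower, 4 in that fit, numbered 0, 8, 9 and, after the correction with the block, 0 under the same settings, 2 when a size of at least 1 on the log2 scale was required, and 0 to 95 with 1 library left out.

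Fold changes near 0 changed sign, none of them past the threshold. Under median-ratio scaling Nupr1 turned to 0.10, Psat1 to 0.011, Ddit3 to 0.068, Iars to 0.092, Sars to 0.085 and Nars to 0.013. At a common total without rRNA Wars turned to -0.00080 and Qars to -0.046. After length and GC correction, with or without the replicate block, Vldlr turned to 0.0032, Qars to -0.00050 and Iars to 0.069. With 1 library left out the log2 fold change ran from -0.59 to 0.075 for Atf5, -0.41 to 0.050 for Cebpg, -0.44 to 0.047 for Vldlr, -0.064 to 0.067 for Nupr1, -0.21 to 0.045 for Psat1, -0.18 to 0.16 for Ddit3, -0.029 to 0.045 for Qars, -0.14 to 0.060 for Iars, -0.35 to 0.073 for Dars, -0.15 to 0.054 for Sars, -0.25 to 0.11 for Nars and -0.32 to 0.21 for Lars. The cause of these changes was not tested. Over the 37 members, 318 fold changes under other settings and 200 with 1 library left out kept their direction and side of the threshold, and 14 and 22 changed sign. The first count overstates stability, since many of its fold changes could not change sign. No filter, the filter at 5 FPKM, the replicate block and limma without the trend leave each member's fold change as it was. The block also leaves the fold changes of the length and GC correction as they were. Lars2 had an adjusted p of 0.0238 with the replicate block and 0.0643 when the length and GC correction was added to it.

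The labels do not say whether replicate numbers pair the samples. Deviations of same-numbered libraries correlated across genes at 0.296, -0.121 and -0.112, and those of YOD1 library 3 and control 2 at 0.339. Libraries of a group also differed with GC content, so these values cannot show or exclude a shared culture or day. The block is given as counts. FPKM hold no depth, so the precision of low members such as Eprs cannot be stated as counting error, and 3 libraries a group limit every interval.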

Other observations

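Ratios of member levels within a library, picked after the values were seen and given with no test, set genes side by side that share a library. Psph over Psat1, the last over the middle enzyme of serine synthesis, was 0.669, 0.718 and 1.06 in YOD1 libraries and 0.488, 0.566 and 0.492 in control libraries, without overlap. Phgdh over Psat1 was 7.48, 7.34 and 12.3 in YOD1 libraries and 5.82, 8.04 and 6.91 in control libraries, with overlap. Chac1 over Asns was 1.66, 1.46 and 1.86 in YOD1 libraries and 2.35, 2.02 and 1.99 in control libraries, without overlap. Asns over Atf4 was 0.337, 0.403 and 0.402 in YOD1 libraries and 0.308, 0.314 and 0.347 in control libraries, with overlap.

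Summed over the 19 ATF4 pathway genes, the level was 3439, 3538 and 3783 FPKM in YOD1 libraries and 3458, 3125 and 3075 FPKM in control libraries, and a few genes such as Phgdh made up much of it. Summed over the 18 synthetases, it was 1238, 1312 and 1230 FPKM in YOD1 libraries and 1163, 1092 and 1168 FPKM in control libraries, without overlap. The summed FPKM of all genes was also higher in every YOD1 library. As a share of that total the synthetases made up 0.366%, 0.402% and 0.349% in YOD1 libraries and 0.363%, 0.348% and 0.367% in control libraries, with overlap.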
